A study of Mus musculus with 2 samples.

Results

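The Raet1 locus on chromosome 10 and the H2 genes on chromosome 17 were examined in a map of H3K27me3 from mouse rib chondrocytes. Both families include genes for cell-surface ligands read by immune cells. Members were the listed regions that named Raet1a, Raet1b, H2-Q1 or LOC547349, or any other gene whose symbol starts with Raet1 or H2-. These were 17 of the 2017 listed regions, 6 at the Raet1 locus and 11 at H2 genes, and the member symbols they named were 9 of the 922 gene symbols in the list. The loci were chosen by the rank, length and tag number of some of their regions in this same list, so length, rank and tag number are given as descriptions and were not tested. The cells were wild-type chondrocytes from the ribs of 11 CD1 mice at postnatal day 2.5, pooled, grown overnight in medium with 5% fetal calf serum and harvested from dishes of 10 cm. From this culture came 1 ChIP library, made with an antibody against H3K27me3, and 1 input library, made from a 2% sample of the chromatin without pull-down. There were no replicates, so every interval below covers counting error only, treats tags as independent and says nothing of the variation between cultures. CD1 is an outbred stock, whereas the mouse reference genome is that of the inbred strain C57BL/6J.

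H3K27me3 is the mark that PRC2 places on histone H3 and is found over silenced genes. Raet1 genes encode the Rae-1 proteins, which are ligands of NKG2D, an activating receptor on natural killer cells and some T cells. They are scarce on most healthy cells and appear on stressed, infected or transformed cells. Inbred strains differ in which Raet1 genes they carry: Raet1a, Raet1b and Raet1c were described from strains such as BALB/c, and Raet1d and Raet1e are the genes of C57BL/6. H2 genes form the mouse MHC. Class I genes encode heavy chains that pair with beta-2-microglobulin, and they comprise the classical genes, which present peptides to cytotoxic T cells, and many class Ib genes in the Q, T and M regions, to which H2-Q1 and H2-T3 belong. Both families arose by repeated duplication, and some of their members resemble each other closely.

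How far this holds can be seen in the sequences before the start of each gene, taken from RefSeq on GRCm38.p6, a later build than the mm9 of the list. None of the 3 Raet1 symbols of the list (0 of 3) matched a symbol of the RefSeq table, which places Raet1e, H60b, C920009B18Rik and Raet1d in this order on chromosome 10, with other genes between them. H60b encodes another NKG2D ligand. The 250 bases before a start of Raet1e, chr10:22173247-22173496 on the plus strand, and those before the start of Raet1d, chr10:22361644-22361893 on the plus strand, were 97.2% identical in a global alignment of 252 columns, with 3 bases that differed and 4 gap columns. They are shown as an example of close copies, whose reads can be hard to tell apart. Whether a listed region covers either window was not tested. Capitals mark the bases that differ or have no partner.
Raet1e: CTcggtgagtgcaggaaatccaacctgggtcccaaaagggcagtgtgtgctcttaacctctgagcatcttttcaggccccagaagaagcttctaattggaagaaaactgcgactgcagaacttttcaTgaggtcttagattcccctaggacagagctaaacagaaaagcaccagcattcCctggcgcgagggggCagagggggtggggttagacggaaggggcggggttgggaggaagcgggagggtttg
Raet1d: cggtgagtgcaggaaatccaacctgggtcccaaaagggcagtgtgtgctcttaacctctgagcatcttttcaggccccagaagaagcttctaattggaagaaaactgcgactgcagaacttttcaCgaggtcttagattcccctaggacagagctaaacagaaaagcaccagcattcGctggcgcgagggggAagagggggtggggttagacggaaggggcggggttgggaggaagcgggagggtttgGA

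The start of Raet1e that lies further upstream, chr10:22158319-22158568, had another sequence there, with 46.7% identity to the window of Raet1d. It held 16 CG pairs, and 25.4% of the 32851 windows of this length in the table held at least as many, whereas the window of Raet1d held 9. Of the H2 genes with a region over the 5′ end, H2-T3 had a window in the table, and its 250 bases, chr17:36190152-36190401 on the minus strand, are given with CG pairs in capitals.
H2-T3: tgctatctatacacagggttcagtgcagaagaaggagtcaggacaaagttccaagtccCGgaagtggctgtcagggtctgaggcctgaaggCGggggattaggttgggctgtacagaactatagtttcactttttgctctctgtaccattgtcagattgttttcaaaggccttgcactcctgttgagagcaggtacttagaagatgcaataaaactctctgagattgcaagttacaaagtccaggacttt
It held 2 CG pairs against a median of 6 over all windows, and 81.2% of the windows held at least 2. The window with most identity to it among the H2 windows was that of H2-M5, with 54.5%. That is little more than its 48.0% with the window of Raet1d, a gene of the other family. Some other H2 windows were much closer to each other, such as H2-D1 and H2-Q6 with 82.0%, and H2-M1 and a window of H2-M9 with 92%. Neither H2-T3 nor the Raet1 windows held GAAANNGAAA on either strand, a strict form of the interferon-response element, which 2.98% of all windows held. Among the H2 windows, only those of H2-T22 and H2-T23 held it. The windows of the classical genes H2-K1 and H2-D1 did not, so its absence does not show that H2-T3 lacks such an element. TATAAA on either strand was not found in the H2-T3 or Raet1 windows, against 12.4% of all windows. These are matches of letters and show no binding.

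At the Raet1 locus, H3K27me3 lay in 6 regions along 188850 bp of chromosome 10 (mm9), and they covered 18749 bp, or 9.93% of that stretch. Most of the sequence was in a region over the 5′ end of Raet1a and in a close pair of regions more than 100 kb downstream of it. The list gives positions without saying whether they count from 0 or from 1, and it names a gene up to 4979 bp from a region. From its distances the 5′ end of Raet1a is at 21878415, that of Raet1b at 21893681 and that of Raet1c at 21893708.

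The region at the 5′ end of Raet1a ran from 21874363 to 21882162. It extended 4052 bp to the left of the 5′ end and 3747 bp to the right, so the 5′ end lay near its middle, and the summit of the ChIP profile was 1685 bp away from it. In its 7799 bp there were 580 ChIP and 116 input tags. Only 1 region in the list had more ChIP tags, and 2 were longer. Its ratio of ChIP to input tags was 5.00 (95% Clopper-Pearson interval 4.09 to 6.16), and its ChIP profile reached a height of 15.6, with 10 regions higher.

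At the 5′ ends that the list gives for Raet1b and Raet1c there was no region. Since these symbols did not match the RefSeq table, this does not show that a Raet1 gene lacks the mark at its start. The 5′ end of Raet1b lay 11519 bp beyond the right edge of the region at Raet1a, and the next region, from 21919597 to 21920487, began 25916 bp from it. That second region held 51 ChIP against 12 input tags, which is a ratio of 4.25 (2.24 to 8.76). All 5 regions to the right of the one at the Raet1a 5′ end named Raet1a, Raet1b and Raet1c together, as regions within these genes. The list still placed a region inside Raet1a at 184168 bp from its 5′ end and inside Raet1b at 168902 bp. In the RefSeq order, H60b and C920009B18Rik lie between Raet1e and Raet1d, so the listed spans cover a stretch with several genes. Regions were therefore described by position. Which Raet1 copy a region belongs to, at the listed 5′ end of Raet1a or downstream, cannot be read from the name.

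Further right came a pair of regions 79 bp apart, from 22000397 to 22004635 and from 22004714 to 22008890. The left one held 277 ChIP tags against 87 input tags, with a ratio of 3.18 (2.49 to 4.10). Its partner held 297 and 80, with a ratio of 3.71 (2.89 to 4.81). These intervals overlap. Together the pair held 574 ChIP tags in 8414 bp, a length and tag number close to those of the region at the 5′ end of Raet1a (580 ChIP tags in 7799 bp). ChIP tags per kb were 68.2 in the pair (exact Poisson 95% interval 62.8 to 74.0) and 74.4 at the 5′ end (68.4 to 80.7), which overlap. Input tags per kb were 19.8 in the pair (16.95 to 23.1) and 14.9 at the 5′ end (12.3 to 17.8), whose intervals overlap as well.

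The next region to the right, from 22020762 to 22021778, again had 51 ChIP and 12 input tags, and it also named C920009B18Rik, a long non-coding RNA gene, at 4748 bp from its 5′ end. The last, from 22062583 to 22063213, held 34 ChIP against 5 input tags, which is a ratio of 6.80 (2.65 to 22.3). It had the lowest input level of the locus, 7.94 tags per kb. After it, no region was listed for 474054 bp. The small regions (all but the 5′ end and the pair) had ChIP heights from 8.27 to 9.27, and the lowest height in the list was 8.0, so they lay near the limit at which regions were kept.

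**Figure D1:**
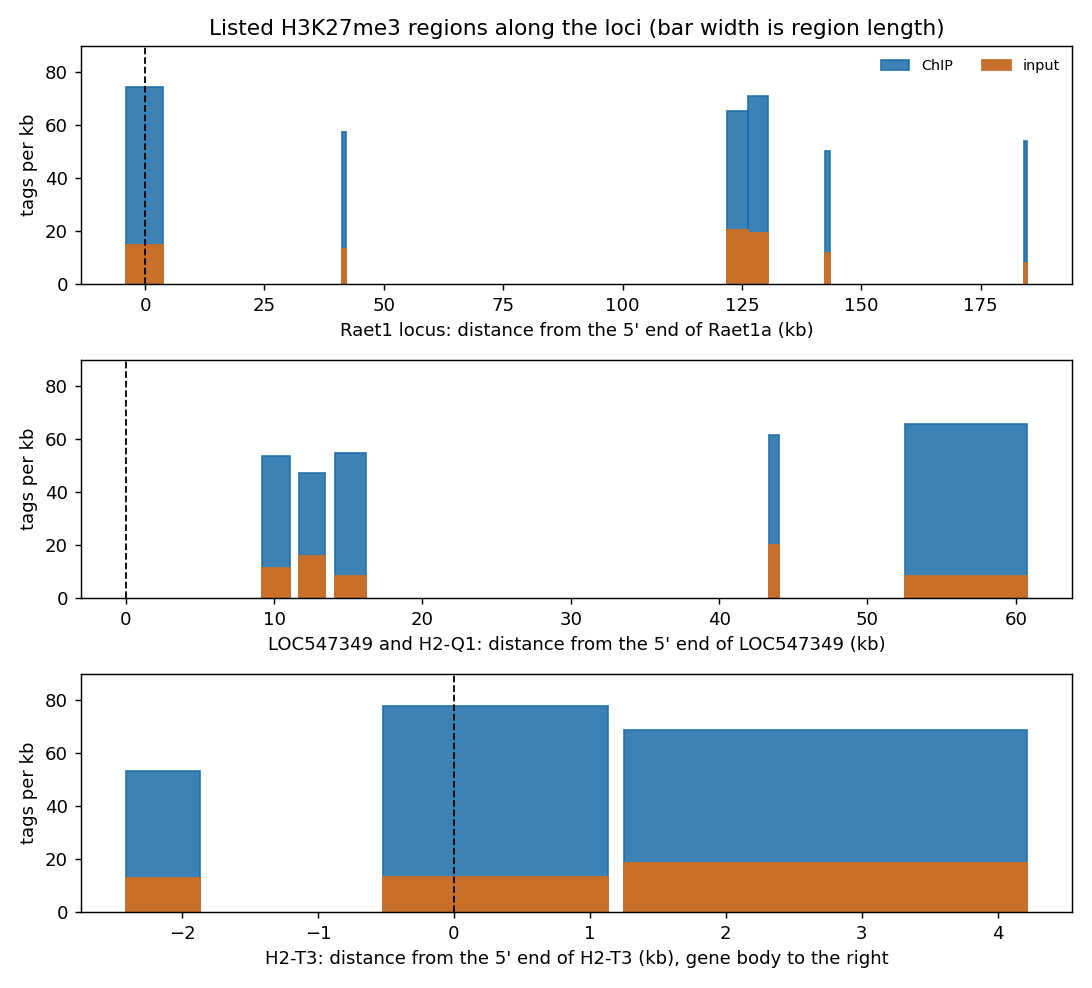
Listed H3K27me3 regions along the Raet1 locus (top), LOC547349 with H2-Q1 (middle) and H2-T3 (bottom); the x axis is the distance in kb from the 5′ end of Raet1a, LOC547349 or H2-T3 (dashed line), the width of a bar is the length of the region and its height the ChIP (blue) or input (orange) tags per kb, both measured from 0. The 5′ ends of Raet1a and H2-T3 lie inside a region, and LOC547349 has its first region 9206 bp from its 5′ end.

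Of the H2 genes, H2-Q1 carried the largest region, H2-T3 had regions at its 5′ end and in its body, H2-Bl had regions on both sides, and H2-Aa had a small region beyond its 3′ end. Together the 11 regions covered 22884 bp and held 1428 ChIP tags and 263 input tags. Regions overlapped the gene named in 7 of the 11 cases and in 6 of 6 at the Raet1 locus, 13 of 17 in all, where 41.7% of all listed regions overlapped a gene. Since Raet1a and LOC547349 are given long spans in the list, nothing is read from this share.

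H2-Q1 is a class Ib gene at the start of the Q region, next to the classical gene H2-D1 in the RefSeq order if pseudogenes are left out. Its region ran from 35455229 to 35463507, with 544 ChIP and 68 input tags in 8278 bp. Only 1 listed region was longer, 3 had more ChIP tags and 4 had a higher ChIP profile (height 17.9). The ratio of ChIP to input tags was 8.0 (6.21 to 10.45), which does not overlap that of the region at the 5′ end of Raet1a (4.09 to 6.16). ChIP tags per kb were 65.7 (60.3 to 71.5), lower than at Raet1a with overlapping intervals, and input tags per kb were 8.21 (6.38 to 10.4), below those of Raet1a with intervals that do not overlap. The higher ratio at H2-Q1 thus went with a lower input and not with more ChIP tags per kb.

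LOC547349, for which the RefSeq table gives the synonym H2-K1, is the second name of the H2-Q1 region and the sole member name of 4 smaller regions to its left. The list places the H2-Q1 region inside this gene at 52505 bp from its 5′ end, a span that also takes in H2-Q1. The first 3 regions lay 585 and 671 bp apart. They held 100 ChIP tags and 21 input tags (35411930 to 35413789), 85 and 29 (35414374 to 35416178), and 112 and 17 (35416849 to 35418894). Their ratios were 4.76 (2.95 to 8.03), 2.93 (1.90 to 4.64) and 6.59 (3.94 to 11.7), and the intervals of each overlap those of at least 1 other. The region nearest to H2-Q1, from 35446114 to 35446763, held 40 ChIP tags against 13 input tags, and its 20.03 input tags per kb (10.7 to 34.3) were the highest level at any H2 gene. Summed, the 4 regions had a ratio of 4.21 (3.29 to 5.45), which does not overlap that of the H2-Q1 region beside them.

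H2-T3 encodes the thymus leukaemia antigen, a class Ib molecule known from the intestine and thymus. The list also names the same regions for H2-Tw3, which the RefSeq table gives as a synonym of H2-T3, with a 5′ end 29 bp away. In the region over the 5′ end, from 36325963 to 36327615, there were 129 ChIP and 22 input tags, and its summit was 503 bp inside the gene. Its 78.1 ChIP tags per kb were the most at any member, with 15 listed regions higher. The region in the gene body, from 36322877 to 36325847, held 204 and 55, and a short region upstream, from 36328967 to 36329510, held 29 and 7. Their ratios were 5.86 (3.71 to 9.68), 3.71 (2.74 to 5.09) and 4.14 (1.78 to 11.2), with overlapping intervals. The upstream region was the weakest member, with a ChIP height of 8.06.

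H2-Bl, a transcribed pseudogene in the RefSeq table, spans 4411 bp by the distances of the list and had no region inside it. The region upstream, 1652 bp from its 5′ end (36223056 to 36225086), contained 115 ChIP and 21 input tags, and a region from 36215076 to 36215679, 1314 bp past its 3′ end, held 43 and 8. Their ratios, 5.48 (3.42 to 9.18) and 5.38 (2.50 to 13.2), overlap. H2-Aa, which encodes the alpha chain of a class II molecule of antigen-presenting cells, was the sole class II member. Its region, from 34415551 to 34416002, lay 3694 bp past the 3′ end of the gene and held 27 ChIP against 2 input tags, which is a ratio of 13.5 (3.39 to 117). The 2 input tags leave this ratio almost undetermined.

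**Figure D2:**
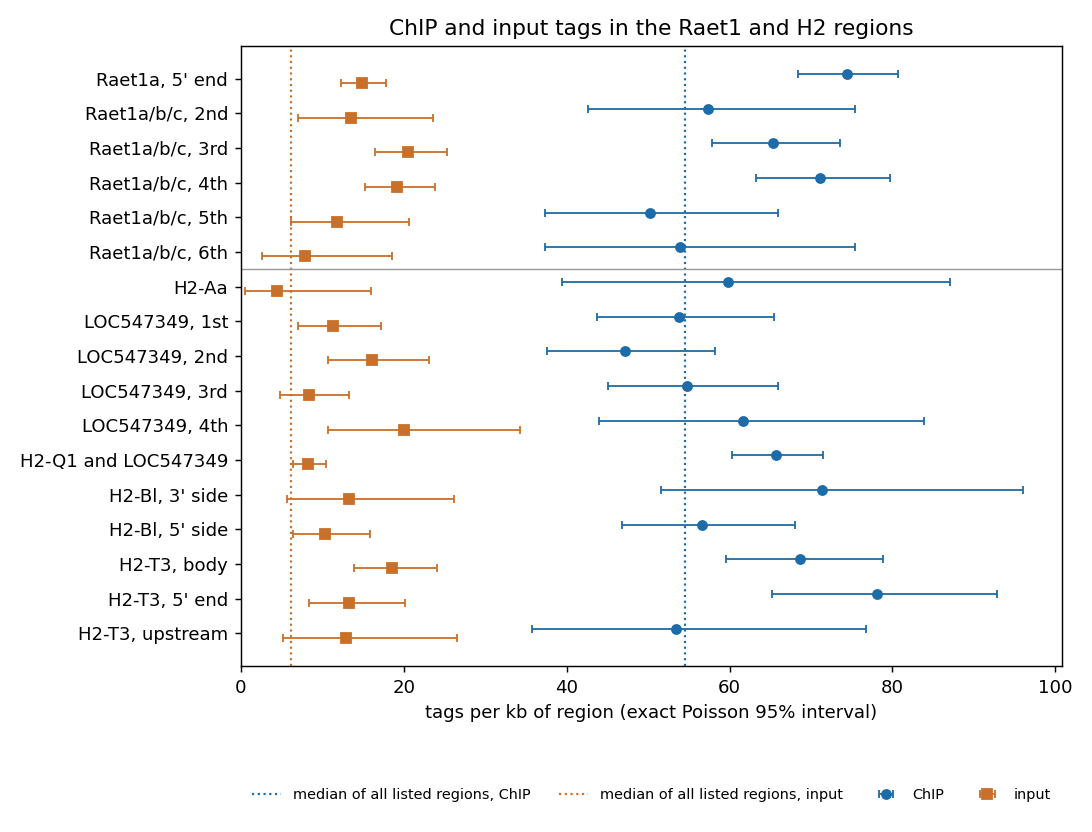
ChIP (blue circles) and input (orange squares) tags per kb in each of the 17 regions, with exact Poisson 95% intervals; dotted lines are the medians of all 2017 listed regions, 54.5 ChIP and 6.22 input tags per kb. Input lies above its median in 16 of the 17 regions, with H2-Aa as the exception, and ChIP in 12 of 17.

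The members were then set beside the 2000 listed regions that are no members. ChIP tags per kb, which follow from the values that chose the loci, were 68.8 at the Raet1 locus and 62.4 at the H2 genes, and 54.0 in the regions that are no members, and nothing is read from their order. Input tags per kb were 16.6 (exact Poisson 95% interval 14.8 to 18.6) at the Raet1 locus and 11.5 (10.15 to 13.0) at the H2 genes, against 7.15 (7.05 to 7.25) in the regions that are no members. Against the 37 of these of at least 4000 bp, a limit chosen after seeing the data, the input of the Raet1 locus was still higher, whereas that of the H2 genes was not: the 37 held 11.9 input tags per kb (11.4 to 12.4), at a ChIP-to-input ratio of 5.00 (4.77 to 5.23), and both intervals overlap those of the H2 genes. These 37 include regions of very high input, up to 46.4 tags per kb. Among the H2 regions only that at H2-Q1 is as long, and the Raet1 locus also holds shorter ones, so regions of unlike length are compared. Without the region at H2-Q1, the H2 genes held 13.35 input tags per kb (11.5 to 15.4), an interval that also overlaps that of the 37. Over all listed lengths, the ratio was 4.13 (95% Clopper-Pearson interval 3.65 to 4.69) at the Raet1 locus and 5.43 (4.76 to 6.22) at the H2 genes. It was 7.55 (7.44 to 7.67) in the regions that are no members. The 3 intervals do not overlap, but the ratio holds the ChIP tags that helped choose the loci. It is thus given as a description and was not tested. A ratio of summed tags weights long regions more. Without the region at H2-Q1, the ratio at the H2 genes was 4.53 (3.88 to 5.32), an interval that overlaps that of the Raet1 locus. Without the region at the Raet1a 5′ end, the ratio at the Raet1 locus was 3.62 (3.09 to 4.27). By region, 6 of the 17 members had an interval wholly below the 7.47 of all listed regions. These were the Raet1a 5′ end, the pair further downstream, the second and the last of the smaller regions of LOC547349 and the body of H2-T3. No member had an interval wholly above the 7.47. Intervals are narrower in regions with many tags, and tag number helped choose the loci. The share over all listed regions was not computed, so nothing is read from the 6 of 17.

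**Figure D3:**
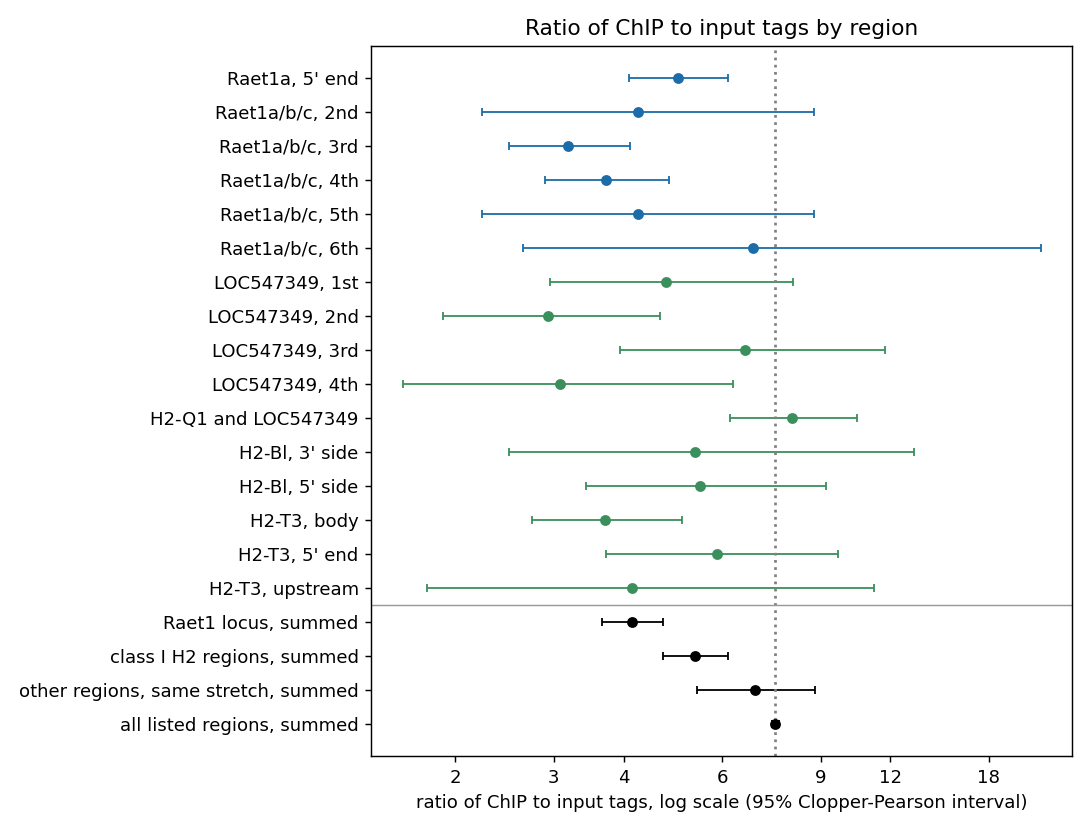
Ratio of ChIP to input tags (log scale) with 95% Clopper-Pearson intervals for the regions of the Raet1 locus (blue) and the class I H2 genes (green), and for tags summed over groups of regions (black); the dotted line is the 7.47 of all listed regions. H2-Q1, at 8.0, lies to the right of the other regions shown; H2-Aa, with 2 input tags, is left out.

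The deposited ratio uses the measured input only where this exceeds a floor of 9.21 tags per kb. That was so in 23.1% of all listed regions, and in 13 of the 17 members: 5 of 6 at the Raet1 locus and 8 of 11 at the H2 genes. The 4 others were the last Raet1 region, the third region of LOC547349, the H2-Q1 region and the region of H2-Aa. Where the floor applied, the deposited ratio was below that of the measured tags, as at H2-Q1 with 7.14 in place of 8.0. The loci were chosen by rank, length and tag number. Among the members the order of rank was that of the q-value, and the caller compares ChIP with input. The input level is thus not independent of the choice, and the 13 of 17 is a description. A ChIP height of at least 10, found in 13.1% of all regions, was found in 9 of the 17, and a length of at least 4000 bp, found in 2.03%, in 4 of the 17. Nothing is read from these last counts, since they follow from how the loci were picked.

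Among the 41 regions of at least 4000 bp, the 4 long members could be set beside regions of like size one by one. The 37 that were no members had a median of 6.89 input tags per kb, below the 11.9 of their summed tags. More input per kb than in the left region of the Raet1 pair (20.5 tags per kb) was found in 6 of the 41, than at its partner in the pair (19.2) in 8 and than at the Raet1a 5′ end (14.9) in 10. More than at H2-Q1 (8.21) was found in 15. Since the 41 include the 4 long members, such counts can take in other members, as the long Raet1 regions in that for H2-Q1.

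**Figure D4:**
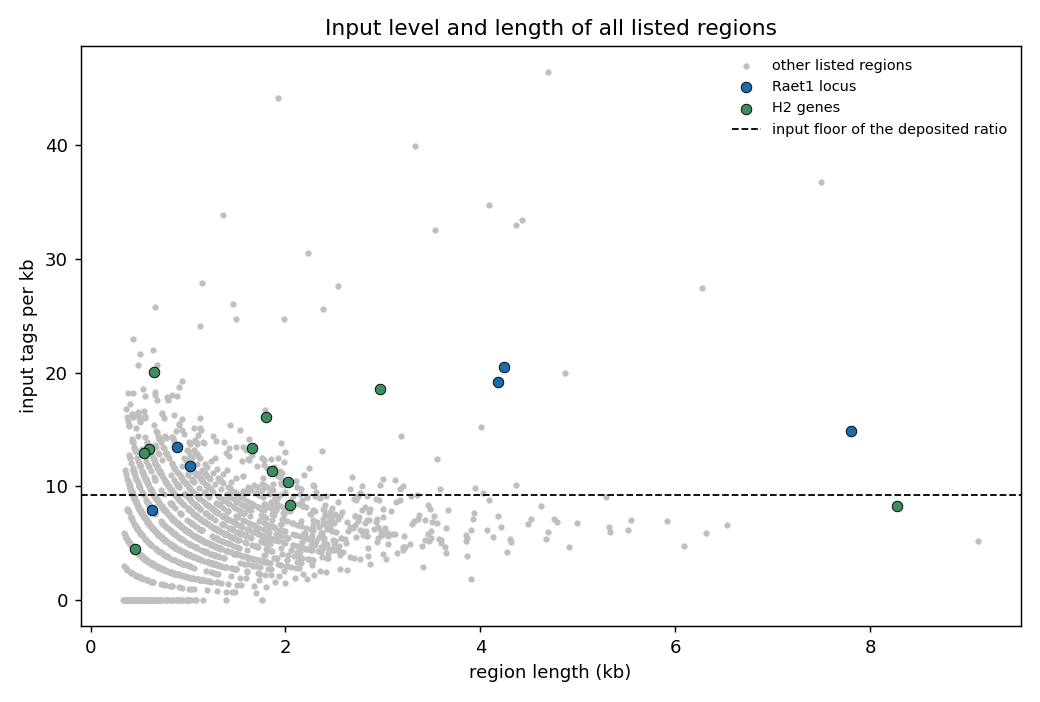
Input tags per kb against length (kb) for all 2017 listed regions, with the Raet1 locus in blue, the H2 genes in green and the other regions in grey; the dashed line is the floor of 9.21 tags per kb used by the deposited ratio. The 3 long Raet1 regions lie above the floor, at 14.9 to 20.5 tags per kb, and the long H2-Q1 region lies just below it.

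Other genes of both pathways were taken from a list chosen with earlier results of these data known. Of 9 symbols of NKG2D ligand genes, 5 were in the RefSeq table. Regions named 3 of the 9, Raet1a, Raet1b and Raet1c, by which the members had been chosen. H60a, H60b, H60c and Ulbp1 were not named. Raet1d and Raet1e were not named either, but the RefSeq table holds these symbols and not the 3 of the list, and puts them around C920009B18Rik, which the list names beside a Raet1a region, so they cannot be counted as separate genes without the mark. The receptor gene Klrk1 and its adaptor genes Hcst and Tyrobp had none (0 of 3). Of 3 symbols of classical class I genes, 2 were in the RefSeq table. None of the 3 was named (0 of 3), nor was B2m, the shared light chain. This count is by symbol and does not count LOC547349, with its synonym H2-K1, as the gene H2-K1. Of 21 class Ib genes 3 were named, H2-Q1, H2-T3 and H2-Bl, and of 11 class II genes 1 was, H2-Aa. As a background, 3.61% of the 21900 protein-coding symbols of the RefSeq table were named by a region, a share that misses genes under older symbols. Which copy of a family a tag came from was not tested.

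Among 10 genes for the light chain and for loading class I molecules with peptide, 3 were named, all within the MHC and by only 2 regions. The share over all protein-coding symbols was 3.61%. Tap1, a subunit of the peptide transporter, and Psmb8, a subunit of the immunoproteasome, shared a region (34335091 to 34335866) with 43 ChIP and 3 input tags. Tap2, the other subunit of the transporter, had a region with 39 and 4 (34352277 to 34352943). The ChIP heights of these regions, 8.89 and 8.44, were near the lowest in the list, 8.0. Summed, they had 4.86 input tags per kb (1.95 to 10.0) and a ratio of 11.7 (5.44 to 30.0). The class I H2 regions had 11.6 input tags per kb (10.3 to 13.1) and a ratio of 5.37 (4.70 to 6.15). The intervals of input do not overlap, and those of the ratio do. Of 16 symbols taken as chondrocyte markers, among them Col2a1, Acan and Sox9, 15 were in the RefSeq table and 0 were named by a region. Since only 3.61% of all protein-coding symbols were named, nothing is read from this count. The list holds no expression values, so it shows neither whether the cells were chondrocytes nor whether any Raet1 or H2 gene was silent in them. In a pooled culture, it also cannot be told apart whether few cells carry much of the mark or many carry little.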

How the data were processed

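ChIP-seq was done on 1 H3K27me3 ChIP library and 1 input library, grouped by the antibody label. The authors mapped reads to mm9 with the DNA Nexus mapper and called regions with QuEST against input; version and settings are not given in the sources used here. The deposited tag counts were not normalized. In the deposited ratio, values are ChIP over input tags, where input has a floor of 9.21 tags per kb, inferred from the values; the input was taken as measured where the ratio of counts matched the deposited one within 0.001. The deposited signal height is that of the smoothed profile, and deposited q-values are on a −log10 scale. Total depth is unknown, so ratios are not scaled for it.

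Members and lists were chosen with earlier results of these data known. Each region was counted once. Lengths are right minus left edge. 5′ ends were derived from the listed distances. Ratios have 95% Clopper-Pearson intervals, whose coverage was checked on simulated independent tags with a known ratio. Such draws do not test tags that depend on each other or regions chosen for high counts. Tags per kb have exact Poisson intervals, which were not checked in this way. There was no test, since each group has 1 library. With a median of 56 ChIP and 7 input tags in a region, single ratios are imprecise. Genes named were the members, the fixed lists and genes of regions within 100000 bp. RefSeq symbols matched 832 of 922 names and 5 of 9 member symbols, with H2-Tw3 matched as a synonym. Promoter windows were the 250 bases before each start, aligned globally (match 1, mismatch -1, gap -2 and -0.5). Protein sequences were not used here. Software: Biopython 1.88, scipy 1.17.1, pandas 2.3.3, numpy 2.4.6 and matplotlib 3.10.9 under Python 3.11.15.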

Additional observations from a re-analysis of the deposited data

How the results depend on the processing

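The number of regions, the bp covered and the ratio were recomputed at each of the Raet1 locus and the H2 genes, 53 values in all. Of these, 39 stayed within 1.5 times the count or bp, or within the 95% interval of the ratio. Some of the 39 could not move. A q-value under 0.01 left out no region, and merging cannot change a ratio of summed tags. At the Raet1 locus, the limits of overlap with the gene and of 100000 bp kept the same 6 regions. The other 14 were these. At the Raet1 locus, a −log10 q-value of at least 50 left 3 regions, and so did a minimum height of 10 (3 regions). Within 2500 bp of the 5′ end, 1 region of 7799 bp with a ratio of 5.00 was left. With input below 2 times the floor, the regions covered 10335 bp with a ratio of 4.94, since this limit takes out the pair of regions with the highest input. At the H2 genes, 7 regions were left that overlapped the gene, 5 within 2500 bp of the 5′ end and 6 with a height of at least 10; merging regions within 3000 bp gave 7, and taking in all regions within 100000 bp gave 18. Without the longest region, chosen after seeing the data, the ratio was 3.62 at the Raet1 locus, that is without the Raet1a 5′ end, and 4.53 at the H2 genes, that is without H2-Q1. Under every alternative both ratios stayed below the 7.47 of all listed regions, which is a description, since the ChIP tags in the ratio helped choose the loci. No paired analysis was possible because each group has 1 library. Tags in the small regions, 27 to 51 ChIP tags, limit their ratios most.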

Other observations

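Within 100000 bp of the H2 regions, 7 other regions were listed on chromosome 17. The region from 36197576 to 36199368 named EG547347 and lay 15708 bp from H2-Bl, with 107 ChIP against 30 input tags (ratio 3.57, interval 2.36 to 5.54). A region without a named gene, from 36345392 to 36346121, lay 15882 bp from that of H2-T3 and held 46 and 12. Their input levels, 16.7 and 16.5 tags per kb, were in the range of the H2-T3 regions (12.9 to 18.5).

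Beside H2-Q1, 2 regions named no gene. The nearer one, from 35468394 to 35469335, began 4887 bp past the end of the H2-Q1 region with 56 ChIP against 5 input tags (ratio 11.2, interval 4.52 to 35.8). The other, from 35490222 to 35490882, held 42 and 5. On the other side, a region from 35337109 to 35338542 named Lta, Ltb and Tnf, genes of the tumour necrosis factor family of cytokines, with 72 ChIP against 9 input tags (ratio 8.0, interval 3.99 to 18.2) with 6.28 input tags per kb. Over all 10 listed regions of this stretch that name no H2 gene, the ratio was 6.86 (5.42 to 8.79), an interval that overlaps that of the H2 regions (4.76 to 6.22).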
